A study of Mus musculus with 15 samples.

Results

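The respiratory chain genes of the mouse prefrontal cortex were taken as every gene whose symbol starts with Nduf, Uqcr, Atp5 or mt-, the genes Sdha to Sdhd, and the genes Cox4 to Cox8 with their suffixes. In all, 104 symbols matched and 103 of the 26145 genes were kept, 90 of them encoded in the nucleus and 13 in the mitochondrial genome. Cox4nb, which starts like Cox4 but is not a subunit gene, was set apart. Complex I took 36 nuclear and 7 mitochondrial genes, complex II 4 nuclear genes, complex III 8 and 1, complex IV 20 and 3, and complex V 15 and 2. The other 7 were the assembly factors of complex I Ndufaf1 to Ndufaf4, Atp5s and Atp5sl, and the pseudogene Atp5l-ps1.

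The respiratory chain sits in the inner mitochondrial membrane. Complex I takes electrons from NADH and complex II from succinate, complex III passes them to cytochrome c, complex IV hands them to oxygen, and complex V, the ATP synthase, uses the proton gradient to make ATP. Complex II is built from nuclear genes alone, while the others join nuclear subunits with subunits translated inside the mitochondrion, so their supply needs transcripts of both genomes. Neurons are known to rely heavily on this chain, and astrocytes and oligodendrocytes to make much use of glycolysis. Several subunits of complex IV have paired isoforms that differ between tissues.

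Single cells of dissociated prefrontal cortex were profiled by droplet RNA sequencing, in which a unique molecular identifier (UMI) counts each captured molecule at its 3′ end. The mice were male C57BL/6N without a transgene, and the tissue of 2 mice was pooled for a library. The 12 P60 libraries came from mice given as 8 to 10 weeks old that self-administered cocaine or saline intravenously after food training and surgery, taken in the maintenance phase, after 48 h or after 15 days of withdrawal, with 2 libraries for each of these 6 groups. The 3 P21 libraries came from younger mice without self-administration, so age and the history of surgery and training cannot be told apart. The methods give 4 mice for P21, pooled in pairs, but there are 3 P21 libraries, so p-values may rest on libraries that share mice. The libraries are numbered as in their titles: 1 and 4 cocaine maintenance, 2 and 3 saline maintenance, 5 and 7 saline 48 h, 6 and 8 cocaine 48 h, 9 and 10 cocaine 15 days, 11 and 12 saline 15 days. The tissue field of the labels reads NAc, while titles and source name the prefrontal cortex.

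The table of retained cells holds 24822 cells at P60 and 10538 at P21, with 8375172 to 42892922 UMIs in a library. The P21 cells in it are slightly fewer than the study states. The authors had removed cells in which over 10% of the UMIs came from the mitochondrial genome. That limit bounds every mitochondrial value below: 3.55% to 12.3% of the deposited barcodes of a library lay above it. Median UMIs per excitatory neuron were 7345 to 11457 over the P21 libraries and 11810 to 16487 over the P60 libraries. The paper's methods name a higher minimum of detected genes for P60 neurons than for P21 cells, while its results state the same criteria for both. The part of depth and of this filter in the age differences was not tested. The authors' 8 classes carried their own markers, and the class named endothelial also carried pericyte markers (summed level of 5 genes 4345 to 5432 CPM at P21 and 5416 to 7760 CPM in saline libraries) and hemoglobin transcripts. Levels (CPM) are UMIs per 1e6 UMIs of all genes that are neither mitochondrial nor cytosolic ribosomal protein genes, so the mitochondrial genes do not dilute the nuclear ones.

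The mitochondrial genes are packed end to end, which bears on what 3′ counting can see. Here are the ends of both pairs of overlapping genes, read from the mitochondrial genome of the build NCBIM37 that the files use, with the overlap of the genes in capitals. The first, at chrM:10142-10198 on the plus strand, is the end of mt-Nd4l (297 bases long), which overlaps the start of mt-Nd4 by 7 bases, and the second, at chrM:7902-7994, is the end of mt-Atp8 (204 bases long), which overlaps mt-Atp6 by 43 bases.
mt-Nd4l and mt-Nd4: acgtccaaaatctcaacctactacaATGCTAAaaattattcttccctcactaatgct
mt-Atp8 and mt-Atp6: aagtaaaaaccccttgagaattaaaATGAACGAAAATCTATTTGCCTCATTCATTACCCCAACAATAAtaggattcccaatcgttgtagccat
In the retained cells of all 15 libraries, mt-Nd4l, a subunit of complex I, had 0 UMIs, mt-Atp8, a subunit of the ATP synthase membrane part, 6717 UMIs and mt-Atp6, the proton channel subunit of the same part, 45573 UMIs. A count of 0 for mt-Nd4l is a value of this counting and says nothing of its RNA, and mt-Nd4l was left out of every test. Chromosome 1 carries nuclear copies of mitochondrial sequence annotated as Gm10222 (0 UMIs) and Gm10925 (1651 UMIs), to which some mitochondrial reads may have been assigned. The last 300 bases of mt-Co1, mt-Co2, mt-Co3, mt-Nd3 and mt-Atp6 and all of mt-Atp8 and mt-Nd4l are identical to that chromosome too. The copy of mt-Nd4l, over its 297 bases, overlaps Gm10222, and those of mt-Atp6 and mt-Atp8 overlap Gm10925. The copies of the others lie outside an annotated gene. The counts of all these genes, with the 0 of mt-Nd4l, are uncertain to that extent.

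For the nuclear genes, promoters of the members that the comparisons below turn on are shown as the 250 bases before the start of the gene, from RefSeq on GRCm38.p6. Ndufv1, Uqcrc1 and Ndufb4 had the largest rises of complex I and III subunit genes between P21 and P60 in excitatory neurons, and Cox5a, Ndufab1 and Uqcrfs1 moved together between libraries. They lie at chr19:4012756-4013005, minus strand, chr9:108936398-108936647, plus strand, chr16:37654369-37654618, minus strand, chr9:57520982-57521231, plus strand, chr7:122101849-122102098, minus strand, and chr13:30545317-30545566, minus strand. Capitals mark the letters GCGCANGCG, the core of the site of the nuclear respiratory factor NRF1, and GGGCGG, the GC box of SP1, on either strand, as letters only and not as sites shown to be bound.
Ndufv1: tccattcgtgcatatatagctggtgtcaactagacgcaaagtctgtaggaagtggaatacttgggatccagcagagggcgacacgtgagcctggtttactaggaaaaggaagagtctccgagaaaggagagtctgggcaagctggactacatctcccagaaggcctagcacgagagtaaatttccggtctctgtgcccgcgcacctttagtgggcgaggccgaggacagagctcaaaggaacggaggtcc
Uqcrc1: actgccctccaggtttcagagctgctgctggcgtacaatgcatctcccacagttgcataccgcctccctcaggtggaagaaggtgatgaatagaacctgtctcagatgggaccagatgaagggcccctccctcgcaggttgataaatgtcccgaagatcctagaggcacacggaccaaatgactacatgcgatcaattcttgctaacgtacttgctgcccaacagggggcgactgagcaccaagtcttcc
Ndufb4: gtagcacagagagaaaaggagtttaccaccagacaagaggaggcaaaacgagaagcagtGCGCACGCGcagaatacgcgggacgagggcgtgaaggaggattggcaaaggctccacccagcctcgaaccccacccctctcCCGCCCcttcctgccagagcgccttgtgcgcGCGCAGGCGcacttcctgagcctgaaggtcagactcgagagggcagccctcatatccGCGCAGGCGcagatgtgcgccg
Cox5a: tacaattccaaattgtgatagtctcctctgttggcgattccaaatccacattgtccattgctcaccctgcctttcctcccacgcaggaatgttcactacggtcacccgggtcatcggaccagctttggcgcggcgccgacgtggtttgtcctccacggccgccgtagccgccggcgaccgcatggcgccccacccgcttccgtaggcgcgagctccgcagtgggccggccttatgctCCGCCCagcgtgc
Ndufab1: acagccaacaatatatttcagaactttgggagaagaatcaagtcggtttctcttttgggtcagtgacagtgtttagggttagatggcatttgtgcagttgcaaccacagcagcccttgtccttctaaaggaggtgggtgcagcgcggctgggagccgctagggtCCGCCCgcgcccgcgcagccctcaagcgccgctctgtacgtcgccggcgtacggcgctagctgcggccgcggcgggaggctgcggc
Uqcrfs1: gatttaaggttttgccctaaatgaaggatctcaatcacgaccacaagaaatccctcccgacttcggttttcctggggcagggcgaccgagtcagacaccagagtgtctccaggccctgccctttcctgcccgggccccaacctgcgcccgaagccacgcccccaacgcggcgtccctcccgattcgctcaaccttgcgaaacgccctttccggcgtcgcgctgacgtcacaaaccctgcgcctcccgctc
Ndufb4 held 3 NRF1 matches and 1 GC box that do not overlap, Cox5a and Ndufab1 held 1 GC box each, and the windows of Ndufv1, Uqcrc1 and Uqcrfs1 held neither set of letters, which says nothing of the factors themselves. Of the 90 nuclear members, 74 had a promoter in the table. The NRF1 letters were in 20.3% of them (15 promoters) and in 5.86% of such 250-base windows of 27025 genes. The ETS letters CCGGAAG were in 17.6% (13) against 7.83%, the YY1 letters AANATGGCG in 5.41% (4) against 1.29%, the GC box in 40.5% (30) against 35.4%, and the letters TATAAA in 8.11% (6) against 14.3%. Promoters of Ndufa2, Atp5a1, Atp5l-ps1, Uqcrc2, Cox6a2, Ndufs1, Sdhc, Cox4i1, Ndufa4l2, Cox6c, Ndufb9, Uqcrb, Cox8c, Uqcrq and Cox4i2 are not shown or counted.

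The nuclear and the mitochondrial share of the chain ranked the cell classes differently at P60. The summed level of the 83 nuclear subunit genes was 64151 CPM ± 5706 in inhibitory neurons and 60396 ± 4113 in excitatory neurons (SD, n = 12 libraries each), and lowest in microglia at 27230.5 ± 3058 (n = 12), endothelial cells at 30460 ± 1660 (n = 12) and mature oligodendrocytes at 30380 ± 1736 (n = 12). Astrocytes, oligodendrocyte precursors and newly formed oligodendrocytes lay between them at 45045 ± 1422, 41608 ± 2774 and 41386 ± 3565 CPM (n = 11 each). The libraries of both neuron classes overlapped, as did those of astrocytes and both immature oligodendrocyte classes, and those of microglia, mature oligodendrocytes and endothelial cells, while these 3 sets did not overlap each other.

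Mitochondrial transcripts gave another order. They made up 5.03% ± 0.365 of all UMIs in mature oligodendrocytes, 3.68% ± 0.313 in endothelial cells and 2.60% ± 0.136 in excitatory neurons (SD, n = 12 each). The other classes lay between the last pair, with 3.59% ± 0.226 in astrocytes (n = 11), 3.35% ± 0.394 in oligodendrocyte precursors (n = 11), 3.19% ± 0.288 in microglia (n = 12), 3.13% ± 0.223 in inhibitory neurons (n = 12) and 2.98% ± 0.162 in newly formed oligodendrocytes (n = 11). Every library of mature oligodendrocytes, from 4.47% to 5.70%, lay above every library of excitatory neurons, from 2.33% to 2.76%. As a ratio of mitochondrial to nuclear subunit UMIs, mature oligodendrocytes had 1.85 ± 0.0822, microglia 1.51 ± 0.170, endothelial cells 1.41 ± 0.108, precursors 0.900 ± 0.154, astrocytes 0.866 ± 0.0550, newly formed oligodendrocytes 0.813 ± 0.0619, inhibitory neurons 0.549 ± 0.0724 and excitatory neurons 0.473 ± 0.0380. The authors clustered the cells without the mitochondrial genes but with the nuclear ones, so these differences between classes are given without a test.

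**Figure D1:**
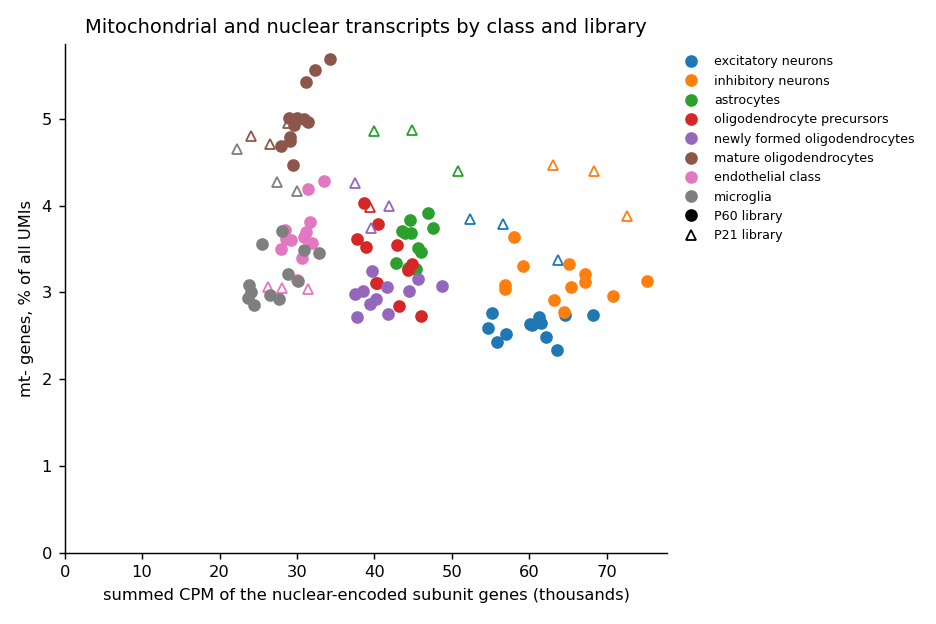
Percent of all UMIs that came from mitochondrial genes (vertical axis) against the summed CPM of the nuclear subunit genes (horizontal axis, CPM divided by 1000), with a point for each library and class, filled for P60 and an open triangle for P21. P60 neurons lie at the lower right, with 2.60% on average in excitatory neurons, and mature oligodendrocytes at the upper left, with 5.03%.

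The same order held for most single genes. Of the nuclear members, 48 had their highest class mean in inhibitory and 22 in excitatory neurons, 8 in astrocytes, 6 in newly formed oligodendrocytes, 2 each in endothelial cells and precursors and 1 in microglia, and 52 had their lowest in microglia and 17 in mature oligodendrocytes. Cox8c, at 0 in every class, and members tied for the lowest were not counted. Of the mitochondrial genes, 8 were highest in mature oligodendrocytes and 9 were lowest in excitatory neurons. By complex, the summed nuclear subunits of complex I reached 23822 CPM in the inhibitory and 21620 CPM in the excitatory class against 8987 CPM in microglia, and those of complex V 14656 and 14076 CPM against 6318 CPM. Complex II stood apart in that astrocytes were highest at 1415 CPM, close to inhibitory neurons at 1364 CPM, with microglia at 666 CPM. The mitochondrial subunits of complex IV summed to 35682 CPM in mature oligodendrocytes and 15144 CPM in excitatory neurons, while its nuclear subunits summed to 8122 and 17630 CPM.

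Several named members show these patterns gene by gene. mt-Co3, a core subunit of complex IV, had 17580 CPM in mature oligodendrocytes and 7253 CPM in excitatory neurons, and mt-Co1, its catalytic subunit, 11142 and 4932 CPM. Sdhb, the iron-sulfur subunit of complex II, had 690 CPM ± 39.7 in excitatory neurons, 727 ± 86.3 in newly formed oligodendrocytes and 277 ± 27.5 in endothelial cells (SD, n = 12, 11 and 12). Atp5g1, Atp5g2 and Atp5g3 encode the same mature c subunit of the ATP synthase ring with different import sequences, and their orders over the classes differed. Atp5g1 was highest in neurons, at 1322 CPM (excitatory) and 1284 CPM (inhibitory) against 353 CPM in endothelial cells, and Atp5g3 likewise, at 816 and 922 CPM against 184 CPM in microglia. Atp5g2 was highest in newly formed oligodendrocytes at 756 CPM, with 375 CPM in inhibitory neurons.

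Isoforms of complex IV marked single classes. Cox4i2, the lung and hypoxia isoform of subunit 4, had 365 CPM ± 54.4 in the endothelial class (SD, n = 12), from 285 to 458 CPM with a median of 364, against 39.1 ± 16.7 in astrocytes, the next class, and 0.43 in excitatory neurons. Ndufa4l2, a paralogue of the complex IV subunit Ndufa4 that hypoxia is known to induce, had 583 CPM ± 89.1 there, from 432 to 744 with a median of 578, against 6.60 in precursors and 0.86 in mature oligodendrocytes. Both lay above the next class in all 11 libraries in which both classes had 10 cells. Cox4i1, the common isoform of subunit 4, had the opposite order, with 3174 CPM ± 162 in excitatory neurons, 2742 in inhibitory neurons and 1351 in endothelial cells, and Ndufa4 had 2849 CPM in inhibitory neurons, 2389 in excitatory neurons and 596 in mature oligodendrocytes.

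Within the endothelial class, Cox4i2 and Ndufa4l2 followed the pericyte markers over the authors' clusters. Endo_4, Endo_5 and Endo_6 had 610, 729 and 633 CPM of Cox4i2 and 968, 1163 and 1015 CPM of Ndufa4l2, beside 6766, 6804 and 5814 CPM of Vtn, 593, 716 and 603 CPM of Kcnj8 and 415, 468 and 416 CPM of Pdgfrb. Endo_7 was lowest, with 70.5 CPM of Cox4i2, 72.3 of Ndufa4l2, 340 of Vtn and 12.0 of Kcnj8. Flt1 and Cldn5, which mark endothelial cells, were present in every one of these clusters, from 1425 to 3289 and from 1257 to 3164 CPM, so none of them is free of endothelial transcripts. The part of pericytes in the level of the class was not tested.

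Cox6a2, the heart and muscle isoform of subunit 6a, had 134 CPM ± 49.8 in inhibitory neurons (SD, n = 12), from 51.5 to 222 with a median of 138, above microglia at 7.61 CPM in 12 of 12 libraries. Among inhibitory clusters it was highest in Inhib_6 at 781 CPM, the cluster with 1611 CPM of Pvalb, and in that cluster at P21 it had 638 CPM beside 1387 CPM of Pvalb. Inhib_7 had 245 CPM with 256 CPM of Pvalb, whereas Inhib_8 had 241 CPM with 0 CPM of Pvalb, so the pair did not move together in every cluster. These cluster levels pool the cells of all P60 libraries, 44 cells in Inhib_6 and 48 in Inhib_8, and only 1 and 2 libraries held 10 or more of them. Cox7a2l, which takes part in joining complexes III and IV, was highest in microglia, the class lowest in most members, at 1094 CPM ± 98.1 against 617 in inhibitory neurons and 280 in newly formed oligodendrocytes, again in 12 of 12 libraries. Cox6b2, named for testis, had 36.4 CPM ± 14.6 in newly formed oligodendrocytes and 34.7 in precursors against 0.079 in excitatory neurons. Cox7a1 reached 13.5 CPM in astrocytes. Cox8b had 19 UMIs in all cells together, and Cox8c had 0, which says that no molecule of it was captured and not that it is absent.

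**Figure D2:**
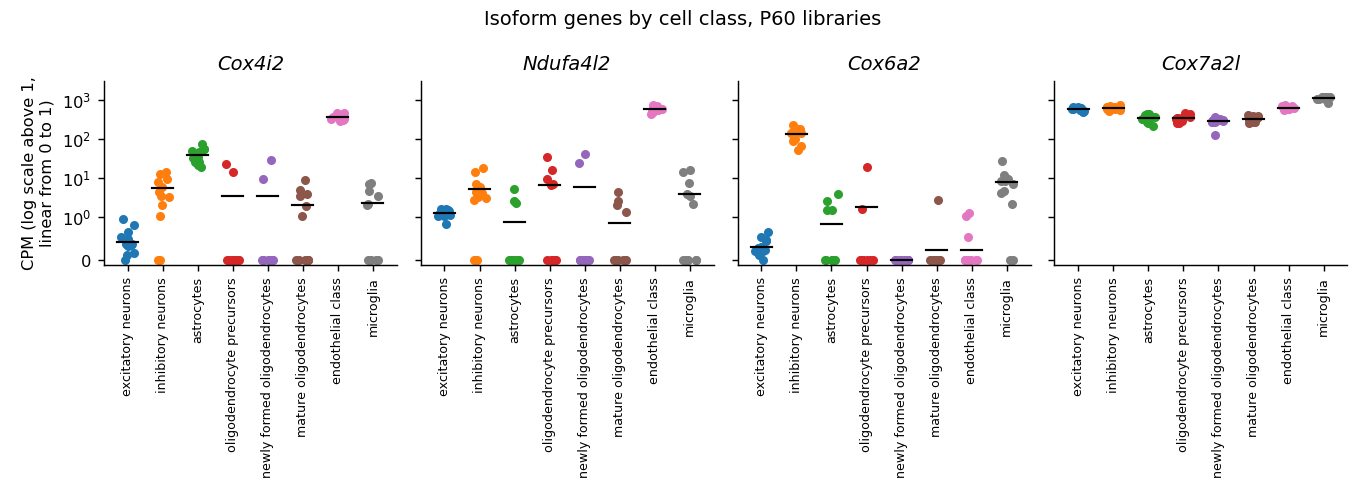
CPM of isoform genes in the 8 cell classes at P60, with a point for each library and a bar at the mean, on an axis that is logarithmic above 1 and linear from 0 to 1. Cox4i2 and Ndufa4l2 stand out in the endothelial class (365 and 583 CPM on average), Cox6a2 in inhibitory neurons (134 CPM).

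Between P21 and P60 in excitatory neurons, more nuclear members rose than fell, while the mitochondrial genes called all fell. The comparison asks what differs between the juvenile and the young adult cortex, and sets the 3 P21 libraries against the 6 P60 saline libraries by edgeR's quasi-likelihood test on UMIs summed per library and class, called at a Benjamini-Hochberg adjusted p under 0.05 over all genes tested. Mitochondrial transcripts were 3.38%, 3.78% and 3.85% of all UMIs in the P21 libraries, and 2.33% to 2.76% with a median of 2.58% in the saline libraries. All P21 values lay above all P60 values. The summed nuclear subunit genes were 57582 CPM ± 5777 at P21 and 60470 ± 3748 in saline libraries (SD, n = 3 and 6), and these overlapped.

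Of the 87 nuclear members tested in excitatory neurons, 34 rose and 8 fell, where 19.3% of all 13257 genes rose and 21.1% fell. Over 1.5-fold, 4 rose and 6 fell, where 8.17% and 11.1% of all genes did. The median log2 change of the nuclear members was 0.21, and that of all genes was near 0. Summed over all classes, with a member counted in each class that called it, the calls past that fold were 7 higher and 23 lower, and 28 higher and 20 lower without P21 library 1. Most of the 23 lower calls were Cox5a, Ndufab1 and Uqcrfs1, each counted in several classes. No share of all genes was set beside these sums, so no direction of the chain is read from them. Of the 12 mitochondrial genes tested in excitatory neurons, 0 rose and 5 fell, with a median of -0.28. By complex, 18 of 36 nuclear genes of complex I rose and 1 fell, 3 of 4 of complex II rose, 3 of 8 of complex III rose and 1 fell, 1 of 17 of complex IV rose and 4 fell, and 3 of 15 of complex V rose and 2 fell. All 4 assembly factors of complex I rose, with log2 changes from 0.24 to 0.47. The mitochondrial calls were 2 of 6 in complex I, mt-Cytb in complex III and 2 of 3 in complex IV, all lower at P60.

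In complex I, Ndufv1, the flavoprotein that binds NADH, had 233, 252 and 243 CPM in the P21 libraries and 352 to 425 with a median of 391 CPM in the saline libraries, a log2 change of 0.75 (SE 0.08, adjusted p = 3.64e-05, edgeR). Ndufs1, the largest subunit of the electron-input module, had 83.9, 92.4 and 86.2 CPM against 115 to 129 with a median of 121 (0.55, SE 0.08, adjusted p = 0.000285). Ndufb4, an accessory subunit of the membrane arm, had 675, 526 and 625 CPM against 702 to 1042 with a median of 937 (0.64, SE 0.14, adjusted p = 0.00395). Ndufab1, the mitochondrial acyl carrier protein, fell instead, from 636, 465 and 413 CPM to 101 to 321 with a median of 135 (-1.52, SE 0.38, adjusted p = 0.0136). None of these 4 genes overlapped between the P21 and the saline libraries. The fall of Ndufab1 was no longer called without P21 library 1 (log2 change -1.32) or with all 12 P60 libraries (-1.10).

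In complex II, Sdha, the flavoprotein that oxidises succinate, had 266, 330 and 311 CPM at P21 and 325 to 449 with a median of 388 at P60, so a P21 library reached the lowest saline library (log2 change 0.43, SE 0.11, adjusted p = 0.00736). Sdhb, which carries the iron-sulfur centres, had 524, 614 and 614 CPM against 647 to 758 with a median of 713 (0.34, SE 0.10, adjusted p = 0.0140), without overlap. The membrane anchors differed in their calls. Sdhd rose from 86.4, 127 and 116 CPM to 116 to 162 with a median of 145 (0.43, SE 0.15, adjusted p = 0.0347) and lost its call without P21 library 1 (0.28). Sdhc, with 110, 117 and 117 CPM against 98.8 to 127 with a median of 114, was not called.

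In complex III, Uqcrc1, a core subunit, rose from 377, 349 and 325 CPM to 478 to 553 with a median of 530 (log2 change 0.63, SE 0.09, adjusted p = 0.000226). Uqcrfs1, the Rieske iron-sulfur protein, fell from 238, 87.7 and 82.2 CPM to 39.2 to 58.9 with a median of 47.2 (-1.44, SE 0.31, adjusted p = 0.00685). Both separated the ages, and P21 library 1 held far more Uqcrfs1 than the other P21 libraries. mt-Cytb, the cytochrome b of the complex and its mitochondrial gene, had 4831, 6370 and 6060 CPM against 3769 to 4511 with a median of 4365 (-0.38, SE 0.10, adjusted p = 0.00867), and was not called without P21 library 2 (-0.31) or 3 (-0.34).

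In complex IV the common isoform Cox4i1 rose slightly, from 2933, 2764 and 2797 CPM to 2890 to 3401 with a median of 3177 (log2 change 0.21, SE 0.08, adjusted p = 0.0407), with overlap, and lost its call in 9 alternatives. Cox5a, a nuclear subunit on the matrix side of the enzyme, fell from 1245, 516 and 437 CPM to 97.1 to 309 with a median of 126 (-2.13, SE 0.47, adjusted p = 0.00831), without overlap. With all 12 P60 libraries the change was -1.51 and was not called. The mitochondrial core subunits fell as well. mt-Co3 had 10746, 12408 and 12521 CPM against 5894 to 8065 with a median of 7287 (-0.67, SE 0.10, adjusted p = 0.000226), and mt-Co1 6944, 7154 and 7427 CPM against 4301 to 5316 with a median of 4779 (-0.51, SE 0.08, adjusted p = 0.000323). mt-Co2, which takes electrons from cytochrome c, had 3806, 3551 and 3372 CPM against 2668 to 3189 with a median of 2992 and was not called (-0.20, adjusted p = 0.0634).

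In complex V, the genes of the c ring moved against each other. Atp5g1 fell from 1867, 1912 and 2061 CPM to 1193 to 1399 with a median of 1353 (log2 change -0.48, SE 0.09, adjusted p = 0.000838), whereas Atp5g3 rose from 621, 612 and 624 CPM to 726 to 856 with a median of 804 (0.44, SE 0.07, adjusted p = 0.000635). Atp5g2 rose from 377, 351 and 343 CPM to 377 to 478 with a median of 447 (0.34, SE 0.09, adjusted p = 0.00754). Atp5g1 and Atp5g3 did not overlap between the ages, and Atp5g2 met at the margin. Atp5d, the delta subunit of the rotor, fell from 1037, 959 and 933 CPM to 591 to 853 with a median of 667 (-0.45, SE 0.10, adjusted p = 0.00337), without overlap. Atp5s, the coupling factor B protein, rose from 9.96, 11.3 and 11.3 CPM to 15.4 to 19.7 with a median of 15.9 (0.70, SE 0.12, adjusted p = 0.000675).

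Low transcripts of isoforms that belong to other classes also fell in excitatory neurons. Cox4i2 had 1.97, 1.09 and 1.16 CPM at P21 and 0 to 0.953 with a median of 0.447 at P60 (log2 change -1.21), Ndufa4l2 3.75, 2.49 and 2.68 CPM against 1.12 to 1.57 with a median of 1.26 (-1.22), and Cox6a2 1.34, 1.56 and 1.31 CPM against 0 to 0.525 with a median of 0.347 (-1.96). The P21 libraries were the higher in each gene. With the class column of the cell table the change of Ndufa4l2 was -0.33 without a call, and Cox4i2 lost its call without P21 library 1 (-0.80), P21 library 3 (-1.33) or any one of 3 saline libraries. Markers of other classes moved with them in the same cells: the 4 endothelial markers summed to 20.3 to 56.3 CPM at P21 and 2.24 to 9.05 CPM at P60, the 5 pericyte markers to 24.0 to 31.0 against 6.71 to 15.5, the inhibitory markers to 39.1 to 46.7 against 1.93 to 16.9, hemoglobin and Alas2 to 930 to 1526 against 102 to 482, and the genes of dissociation and stress response to 763 to 800 against 321 to 506. Their part in these values, and in the other age differences of this class, was not tested.

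**Figure D3:**
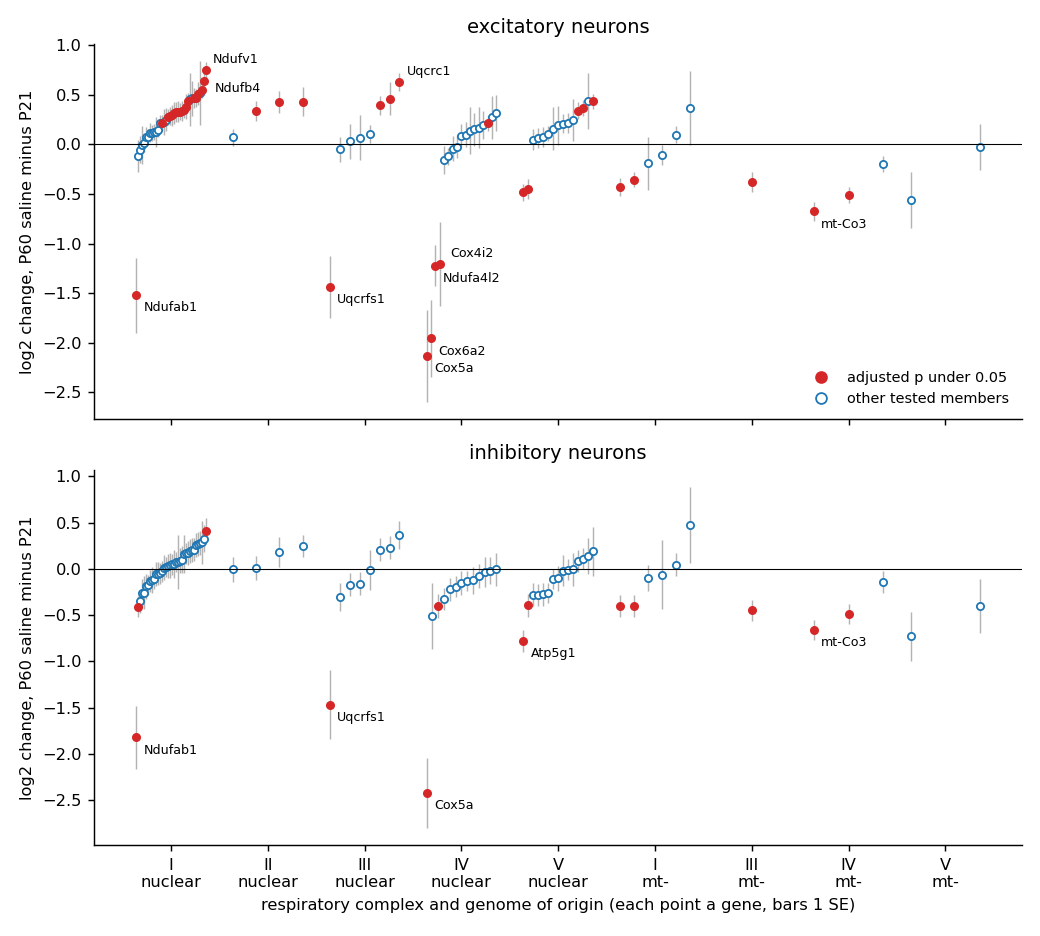
Log2 change, P60 saline minus P21, of each tested member (points, with bars of 1 SE) by complex and genome of origin, in excitatory neurons (top) and inhibitory neurons (bottom), with filled points for calls. In excitatory neurons 32 of 36 nuclear points of complex I and 4 of 4 of complex II lie above 0 (18 and 3 called higher), in inhibitory neurons 22 of 36 and 3 of 4 (1 and 0 called higher), and the 5 called mitochondrial points lie below 0 in both.

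Inhibitory neurons shared the mitochondrial falls but had few nuclear rises. Of 83 nuclear members tested, 1 rose and 7 fell, and of 12 mitochondrial genes 0 rose and 5 fell, where 8.27% of all 8910 genes rose and 10.8% fell. Mitochondrial transcripts were 4.25% ± 0.324 of all UMIs at P21 and 3.11% ± 0.312 in saline libraries (SD, n = 3 and 6). mt-Co3 had 13185, 15054 and 15322 CPM at P21 against 8131 to 10919 with a median of 9037 (log2 change -0.66, adjusted p = 0.000561, edgeR). Atp5g1 had 1949, 2133 and 2452 CPM against 1082 to 1450 with a median of 1282 (-0.78, adjusted p = 0.000328). Neither overlapped between the ages. Ndufb4 was the gene that rose (0.41, adjusted p = 0.0421), and it lost this call in 12 alternatives. Cox6a2 had 234, 163 and 188 CPM against 51.5 to 222 with a median of 127 and was not called. The makeup of the class differed between the ages. Its 6 markers summed to 16344 to 17355 CPM at P21 and 5912 to 14475 CPM in saline libraries, and Inhib_6, the cluster with the highest summed nuclear subunits (89412 CPM at P21), had 162 of 962 cells at P21 and 44 of 1191 at P60. The part of this makeup in the age differences was not tested.

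Endothelial cells went the other way in their mitochondrial genes. Mitochondrial transcripts were 3.04% to 3.06% of all UMIs at P21 and 3.39% to 4.28% in saline libraries, without overlap. Of 12 mitochondrial genes tested 3 rose and 0 fell, and of 86 nuclear members 0 rose and 4 fell, where 6.91% of all 10427 genes rose and 9.56% fell. mt-Co2 had 4258, 3593 and 3455 CPM at P21 against 5874 to 7260 with a median of 6210 (log2 change 0.62, SE 0.12, adjusted p = 0.00235, edgeR). The complex I subunits mt-Nd2 (0.51, adjusted p = 0.0104) and mt-Nd5 (0.57, adjusted p = 0.00401) rose as well, and the call of mt-Nd2 was lost without P21 library 2 (0.46) or 3 (0.41). Hemoglobin and Alas2 summed to 93818 to 121089 CPM at P21 and 48825 to 80681 CPM in saline libraries of this class, which enters the CPM and the percentages. The 3 smooth muscle markers summed to 35.7 to 97.8 CPM at P21 against 122 to 411 CPM, and the pericyte markers to a median of 4695 against 7252 CPM. Astrocyte markers went the other way, with 128 to 161 CPM at P21 against 57.6 to 120 CPM. The part of these signals in the differences was not tested. Cox4i2 (240 to 292 CPM against 301 to 458, log2 change 0.36, adjusted p = 0.0709) and Ndufa4l2 (0.22, adjusted p = 0.273) were not called.

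The other classes gave fewer calls than either neuron class. Mature oligodendrocytes kept 4.82% ± 0.125 mitochondrial transcripts at P21 and 5.02% ± 0.343 in saline libraries (SD, n = 3 and 6). Of their 80 nuclear members tested 5 rose and 4 fell, and of 11 mitochondrial genes none was called, where 9.02% of all 5112 genes rose and 11.2% fell. Those that rose were Ndufa5 (log2 change 0.74), Sdha (0.61), Uqcrc1 (0.50), Ndufs3 (0.45) and Ndufb7 (0.44). In newly formed oligodendrocytes 0 members rose and 4 fell, with 0.744% of all 4703 genes higher and 1.25% lower, mt-Nd1 (-0.58) and mt-Co3 (-0.64) among them. In astrocytes 1 fell, mt-Nd1 (-0.76, 5532, 6550 and 6949 CPM against 3061 to 4419), where 0.121% of 5802 genes rose and 1% fell, and in microglia 1 fell, Ndufab1 (-1.81), where 0.025% of 4004 genes rose and 0.624% fell. The fits of astrocytes and of newly formed oligodendrocytes left out saline library 3, which held 8 astrocytes and no newly formed oligodendrocyte. For microglia, the P21 libraries held only 12 to 149 cells. Mitochondrial percentages were nonetheless higher at P21 in astrocytes, 4.71% ± 0.267 against 3.57% ± 0.188, and in microglia, 4.37% ± 0.258 against 3.09% ± 0.213. Other signals moved with age in these classes. In mature oligodendrocytes their own markers summed to 19652 to 23170 CPM at P21 and 14114 to 17175 CPM in saline libraries, the newly formed markers to 324 to 364 against 229 to 270 CPM, the endothelial markers to 31.0 to 131 against 0 to 18.4 CPM and the microglial markers to 25.6 to 144 against 6.88 to 19.4 CPM. In newly formed oligodendrocytes the genes of dissociation and stress response summed to 461 to 902 against 1119 to 2975 CPM and the precursor markers to 5.13 to 26.4 against 32.0 to 122 CPM. In astrocytes the genes of dissociation and stress response summed to 2050 to 6753 CPM at P21 and 490 to 1723 CPM in saline libraries, the inhibitory markers to 78.6 to 128 against 0 to 41.2 CPM and the newly formed markers to 9.69 to 26.2 against 0 to 7.04 CPM. In microglia their own markers summed to 7720 to 13986 against 14051 to 22636 CPM, the endothelial markers to 132 to 523 against 8.08 to 106 CPM, the precursor markers to 47.5 to 118 against 0 to 4.61 CPM and the newly formed markers to 23.8 to 158 against 0 to 9.96 CPM, and the part of these signals was not tested. Oligodendrocyte precursors could not be tested for age, since 2 of the P21 libraries held under 10 of them.

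Whether the age difference itself differed between classes was tested as an interaction, with each library giving both classes. Against endothelial cells, the change of excitatory neurons was higher for 28 and lower for 3 of 87 nuclear members, and lower for 10 of 12 mitochondrial genes, where 7.42% of all 13121 genes were higher and 6.87% lower. mt-Co2 differed by -0.78 on the log2 scale (SE 0.07, adjusted p = 2.17e-06, edgeR) and mt-Co1 by -0.67, while Ndufv1 differed by 0.66 and Uqcrc2, a core subunit of complex III, by 0.62. Against inhibitory neurons, 46 of 88 nuclear members were higher and 3 lower, where 6.19% and 4.9% of all 12208 genes were, and no mitochondrial gene was called of 12, nor at an unadjusted p under 0.05. Atp5g3 (0.58), Ndufv1 (0.53) and Atp5sl (0.68) were among the higher. The makeup of the inhibitory class differed between the ages, as given above, and its part in these differences was not tested.

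Against mature oligodendrocytes, 0 nuclear members and 3 mitochondrial genes were called, all 3 lower in excitatory neurons, with 2.43% of all 12036 genes higher and 2.25% lower. mt-Co1 was the largest of these (-0.60, SE 0.14, adjusted p = 0.00534). Against microglia only Cox7a2l was called, lower in excitatory neurons (-1.24, SE 0.34, adjusted p = 0.0377), where 0.155% of 12224 genes were higher and 1.01% lower, and here the median of all genes lay at -0.18. It had 701, 784 and 552 CPM in microglia at P21 against 820 to 1172 with a median of 1140, and 602, 702 and 691 against 527 to 658 with a median of 585 in excitatory neurons. The P21 libraries held 12 to 149 microglia with 29679 to 467133 UMIs, so the level in the smallest rests on few molecules. Against astrocytes no member was called by edgeR, where 0.0573% of 12211 genes were higher and 0.131% lower, with 5 nuclear and 2 mitochondrial genes at an unadjusted p under 0.05 and a median of all genes at -0.14. The share of all genes at that unadjusted p was not compared, so no difference is read from these counts.

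The pattern of excitatory neurons was repeated over their 26 clusters. The median log2 age change of the nuclear members lay above 0 in all 26, from 0.05 to 0.40, and that of the mitochondrial genes below 0 in all 26, from -0.72 to -0.09. Over the clusters, 312 of 2110 tests of nuclear members were called higher and 94 lower, and of 281 tests of mitochondrial genes 1 was called higher and 123 lower, where 6.71% of the tests of all genes were higher and 8.21% lower. Exc_25 had the most, with 40 members higher where 15.2% of its genes were, and Exc_26 had no call among 92 members, with 16 at an unadjusted p under 0.05. The share of all genes of Exc_26 at that unadjusted p was not compared, so no age effect is read from this count. Ndufv1 was higher in 24 clusters (log2 change 0.41 to 1.46 over all 26), Uqcrc1 in 24, Ndufb4 in 19, Atp5g3 in 17, Sdha in 13 and Ndufs1 in 11. mt-Co3 was lower in 25, Atp5g1 in 24, mt-Co1 in 22, Cox5a and mt-Nd1 in 20, Uqcrfs1 in 19, mt-Cytb in 18, Atp5d in 17 and Ndufab1 in 13. The clusters come from the same libraries and are not replicates of each other.

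**Figure D4:**
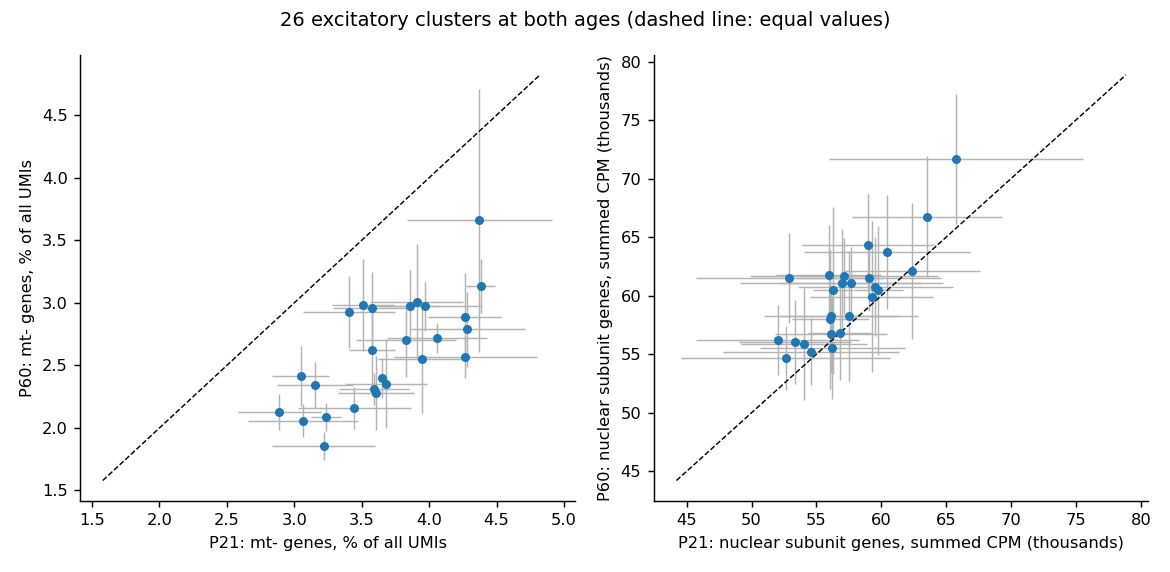
Each of the 26 excitatory clusters at P21 (horizontal axis) and P60 (vertical axis), for the percent of UMIs from mitochondrial genes and for the summed CPM of the nuclear subunit genes, with points at the mean over libraries, bars of 1 SD and a dashed line of equal values. All 26 lie below the line for the mitochondrial percentage, and 24 lie above it for the nuclear sum, 2 below.

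Cox5a, Ndufab1 and Uqcrfs1 varied between libraries far more than the median member, though Uqcrfs1 was not alone in its spread. Among other members, mt-Atp6 had 131 CPM ± 44.7 and Atp5l-ps1 43.6 ± 16.6 in excitatory neurons at P60 (SD, n = 12 libraries). In excitatory neurons of the P60 libraries 1 to 12, Cox5a had 117, 134, 197, 240, 119, 107, 99.7, 150, 708, 632, 97.1 and 309 CPM, a 7.29-fold range. Ndufab1 spanned 5.08-fold and Uqcrfs1 2.82-fold. Their SDs on the log2 scale were 1.00, 0.83 and 0.46, against a median of 0.14 over 6004 genes and 0.12 over 92 members, and 0.0666%, 0.200% and 1.83% of those genes had a larger one. The values moved together in cells of unlike classes. The ratio of the excitatory to the endothelial level of Cox5a stayed between 1.68 and 2.64 in the 15 libraries. For Cox5a the 15-day cocaine libraries were the highest at P60, followed by library 12, a saline library.

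Cox5a, Ndufab1 and Uqcrfs1 were also called for age in several classes. Cox5a was called lower at P60 in excitatory (-2.13), inhibitory (-2.43) and endothelial cells (-2.15) and in mature (-2.08) and newly formed oligodendrocytes (-2.02), Ndufab1 in these 5 classes and in microglia (-1.52 to -1.88), and Uqcrfs1 in the first 4 of them (-1.44 to -1.97). P21 library 1 had the highest Cox5a of all, at 1245 CPM in excitatory, 1529 in inhibitory and 524 CPM in endothelial cells. None of the 3 has a near-identical copy elsewhere in the genome of the build NCBIM37 by an alignment of their last 300 bases, while 13 other nuclear members do (Cox5b, Ndufb11, Uqcr11, Atp5g2, Cox7c, Atp5j, Atp5l, Atp5f1, Cox7a2l, Atp5h, Ndufs5, Ndufs3 and Atp5l-ps1) and are uncertain to that extent. An antisense gene, Gm17596, overlaps the end of Cox5a and had 361 UMIs against 127376. What made libraries differ was not tested.

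**Figure D5:**
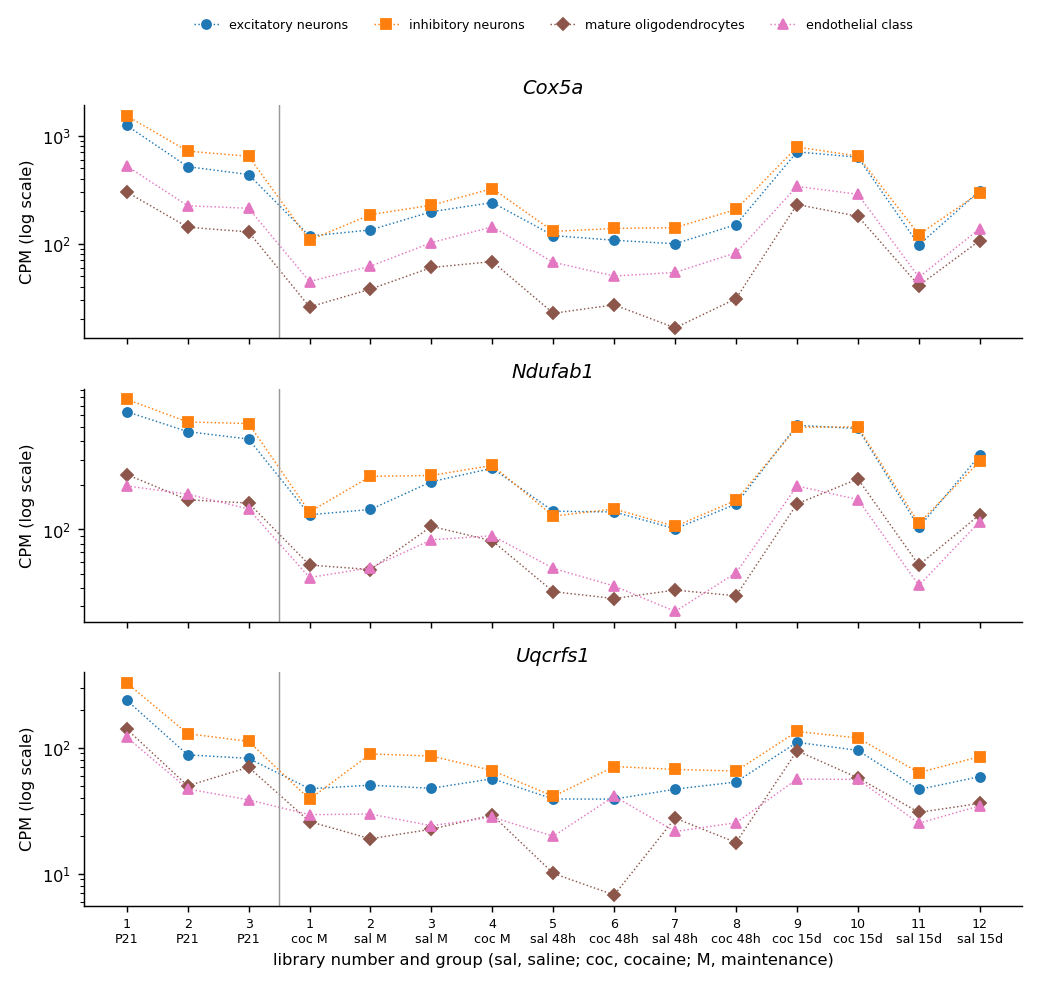
CPM (log scale) of Cox5a, Ndufab1 and Uqcrfs1 in each of the 15 libraries, with a dotted line for each of 4 cell classes and a vertical rule between P21 and P60. The lines follow a similar course, with Cox5a in excitatory neurons at 1245 CPM in P21 library 1, 708 and 632 CPM in libraries 9 and 10, and 97.1 CPM in library 11.

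Short transcripts of the chain also shifted together between libraries. Of 81 nuclear members with enough counts in excitatory neurons, the 28 with a transcript under 700 bases had a median of 0.37 on the log2 scale in maintenance against 15-day libraries, and the 53 longer ones 0.03. Between P21 library 1 and the others the medians were 0.35 and -0.02. The length limit was chosen after these values had been seen. Over 5945 other genes, the same medians were 0.16 (105 short genes) and -0.04 (5840) for the first, and 0.20 and -0.07 for the second. Spearman's rho of length with the shift was -0.54 in both cases over the members, a correlation across genes, which are not independent replicates, and 0.01 over the other genes.

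Cocaine was compared with saline in each period, in a fit over all 12 P60 libraries, or 10 for astrocytes, newly formed oligodendrocytes and precursors. In maintenance no member was called in any class tested, with 0 of 97 at an unadjusted p under 0.05 in excitatory neurons, and those 3 classes could not be tested. None of all 13183 genes tested in excitatory neurons was called in that period. In microglia all 11 mitochondrial genes tested lay above 0 without a call (median log2 change 0.37, 5 at an unadjusted p under 0.05). Among them mt-Co3 led with 0.44 (adjusted p = 0.960, edgeR). These genes were measured in the same libraries, so their shared direction does not count as 11 separate results. The share of all microglial genes at that unadjusted p was not compared, so no cocaine effect is read from this count. At 48 h no member was called either, with 1 of 97 at an unadjusted p under 0.05 in excitatory neurons, where again 0 of all 13183 genes were called. DESeq2 called 0 in both periods. mt-Nd3, a small complex I subunit, had the lowest p at 48 h, in inhibitory neurons (0.61, SE 0.21, adjusted p = 0.823).

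After 15 days of withdrawal Uqcrfs1 alone was called in the main fits by class. In excitatory neurons it had 110 and 95.2 CPM in the cocaine libraries and 46.6 and 58.9 CPM in the saline libraries, a log2 change of 1.01 (SE 0.15, adjusted p = 0.0188, edgeR), where 0.728% of all 13183 genes were higher and none lower. It was called in 17 of the 26 excitatory clusters (0.91 to 1.56) and lay above 0 in all 26, where 1.2% of the tests of all genes over these clusters were higher. The clusters share the same 15-day libraries, so their agreement does not replicate the call. Its log2 change was 1.23 in astrocytes (adjusted p = 0.0865), 1.17 in mature oligodendrocytes (0.130), 0.92 in endothelial cells (0.111) and 0.81 in inhibitory neurons (0.0552), without a call. The call in excitatory neurons was lost without cocaine library 9 (0.92), without saline library 11 (0.84) and with the 4 libraries of the period alone (1.02). The difference between this effect and that of other periods was tested by class and called for no member.

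Cox5a and Ndufab1 had larger changes at 15 days without a call. Cox5a had 708 and 632 CPM in cocaine against 97.1 and 309 CPM in saline libraries in excitatory neurons, without overlap (log2 change 1.77, SE 0.56, adjusted p = 0.397), and lay above 0 in all 8 classes, from 1.48 to 1.81. Ndufab1 had 1.29 (adjusted p = 0.741). Without a filter on low counts both were called by edgeR in excitatory neurons, Cox5a at 1.78 (SE 0.12, adjusted p = 1.87e-44) and Ndufab1 at 1.29 (SE 0.12, adjusted p = 1.26e-23). The libraries were the same and the changes hardly moved, while the SE of Cox5a went from 0.56 to 0.12. These p-values therefore rest on a smaller estimate of the spread in that fit, and are not stronger evidence of a cocaine effect. Without saline library 12 Cox5a reached 2.84 and was called, and the calls summed over the classes went from 1 to 15, all of Cox5a, Ndufab1 and Uqcrfs1. Of the mitochondrial genes in excitatory neurons, none was called at 15 days by class, the median log2 change was -0.04, and 0 of 12 had an unadjusted p under 0.05. By cluster, mt-Atp6 was called lower in Exc_3 (-1.001, adjusted p = 0.0201), where 0.0156% of 6390 genes were lower.

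The other genes of energy metabolism give the frame for the age difference of excitatory neurons, in which 19.3% of all genes rose and 21.1% fell. Of 17 glycolytic genes 14 rose and 0 fell (median log2 change 0.46), of 13 citrate cycle genes 6 rose and 1 fell (0.24), and of 77 mitochondrial ribosomal protein genes 25 rose and 8 fell (0.12). Of 17 biogenesis genes, the regulators and the machinery that copies and transcribes the mitochondrial genome, 3 rose and 6 fell (-0.05), and of 20 carriers and assembly factors of the chain outside the symbols used here 2 rose and 6 fell (-0.09). In inhibitory neurons, where 8.27% of all genes rose and 10.8% fell, 6 of 16 glycolytic genes rose and 0 fell (0.37), and 0 of 12 citrate cycle genes rose and 1 fell. In mature oligodendrocytes, with 9.02% and 11.2% of all genes, 4 of 12 citrate cycle genes rose and 1 fell (0.39).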

How the data were processed

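Droplet single-cell RNA sequencing had been run on 15 libraries of dissociated mouse prefrontal cortex. The authors deposited raw UMI counts per gene and barcode for each library, made with Cell Ranger on the build mm9, and a table of the retained cells with their UMI count, the fraction of UMIs from mitochondrial genes, library, class and cluster, made with Seurat 2.1.0 (tools as in the submitters' processing notes). Per the methods, cells over 10% mitochondrial UMIs and cells with few or unusually many genes, taken as potential doublets, had been removed, clusters were found without mitochondrial and ribosomal genes, and P21 cells took the names of the P60 clusters they correlated with. For P60 the methods name a higher minimum of genes for neurons than for other cells, and for P21 only the lower one. No doublet caller was run here. The deposited UMI counts and fractions of all 35360 retained cells matched the values recomputed from the matrices. The joined expression matrix was not used here.

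UMIs were summed per library and class (class of the deposited cluster), in libraries with at least 10 cells of it. Library sizes left out the 13 mitochondrial and 143 cytosolic ribosomal protein genes, and the mitochondrial genes were tested in the same fit with those sizes. Tests used edgeR 4.0.16 (quasi-likelihood, robust, filterByExpr, TMM) in R 4.3.3, with Benjamini-Hochberg adjustment over all genes tested, and DESeq2 1.42.0 as an alternative. A change is a log2 fold change. In the age comparison, 3 P21 and 6 P60 saline libraries were fitted, and the cocaine comparisons fitted a mean per group over all 12 P60 libraries (10 for astrocytes, newly formed oligodendrocytes and precursors, at 48 h and 15 days). Adjusted p under 0.05 is a call, and the counts in the sensitivity paragraph also need a change over 1.5-fold. The fits were tested on simulated data with 200 genes changed by 1 log2 unit: 196 were called in excitatory neurons for age, 196 for cocaine, 167 and 141 in endothelial cells. The changed genes were drawn from those above a floor of mean level, and genes were drawn independently. Smaller changes, genes of low level and shifts that genes of a library share were thus not covered. Each library is a pool of tissue, P21 libraries may share mice, and p-values measure the spread between libraries. The most barcodes that a pair of libraries shared was 40, with 27.3 expected by chance.

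Alternatives were another size factor, DESeq2, all genes in the library size, no filter on low counts, at least 30 cells, all 12 P60 libraries, other denominators for levels, and leaving out each library in turn. After seeing the data, the class column of the cell table and the sum of P21 libraries 2 and 3 were added. Named genes were the mitochondrial genes, the isoform genes, Sdha to Sdhd, the assembly factors, the highest member of each complex, members over 5 times higher in a class than in another, and the 3 largest rises and falls among calls. Others were named after their values were seen. The promoter motifs were also chosen with the data in hand, and the NRF1 letters were shortened by 1 base after counts for the longer form had been seen. The members and lists were chosen with earlier results of these data known. Ends of transcripts were aligned with minimap2 2.31-r1302 (at least 98% identity over 90 of the last 300 bases) to find copies.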

Additional observations from a re-analysis of the deposited data

Results flagged for a closer look

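In excitatory neurons the age change, P60 saline minus P21, differed from that of other classes by the interaction test for many members. Against endothelial cells it was higher for 28 nuclear members and lower for 3, and lower for 10 mitochondrial genes. Against inhibitory neurons it was higher for 46 nuclear members and lower for 3, against microglia lower for 1, and against mature oligodendrocytes lower for 3 mitochondrial genes. On the log2 scale, the differences from endothelial cells were -2.53 for Cox6b2, -1.40 for Ndufa4l2, -0.91 for mt-Nd3, -0.78 for mt-Co2, -0.67 for mt-Co1, -0.65 for mt-Nd5, -0.61 for mt-Co3, 0.62 for Uqcrc2, 0.66 for Ndufv1 and 0.66 for Ndufs8. Those from inhibitory neurons were -2.55 for Cox4i2, -1.99 for Ndufa4l2, -1.37 for Cox6a2 and 0.68 for Atp5sl. Cox7a2l differed from microglia by -1.24, and mt-Co1 from mature oligodendrocytes by -0.60. Cox6b2, Cox4i2, Ndufa4l2 and Cox6a2 lay near the detection limit in excitatory neurons.

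Single saline libraries lay apart from the other saline libraries in 6 of 98 groups examined, where chance alone gives about 1 in 20. Mitochondrial transcripts in library 2 were 4.28% of UMIs in endothelial cells (3.39% to 3.70% in the others) and 5.70% in mature oligodendrocytes (4.75% to 5.00%), and in library 11 they were 3.49% in microglia (2.92% to 3.13%). Library 12 was high in Cox5a in newly formed oligodendrocytes, at 229 CPM (51.0 to 79.9), and in Ndufab1 in the same class, at 200.3 CPM (40.7 to 64.0), and in microglia, at 143 CPM (32.6 to 55.3).

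Barcodes that the authors did not retain, which no comparison used, had 4.11% to 15.8% mitochondrial UMIs over the libraries, against 2.54% to 3.84% in retained cells.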

How the results depend on the processing

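No paired analysis was possible because the labels give no replicate numbers that groups share. Counted once in each class that called it, members gave 30 calls for age with a change over 1.5-fold (7 higher, 23 lower). Most of the lower ones were Cox5a, Ndufab1 and Uqcrfs1, and no share of all genes was set beside this number. The number was 82 without the fold limit (43 higher, 39 lower), 55 with the class column of the cell table (17 and 38), and 21 to 48 when each library was left out, with the most (28 higher, 20 lower) without P21 library 1. For cocaine at 15 days the count of 1 became 2 with median-of-ratios size factors, 12 without a filter on low counts, 2 with the 4 libraries of the period and 0 to 15 when each library was left out, with 0 without library 9 and 15 without library 12. At 48 h it was 0, and 0 to 1 with each library left out. In maintenance it stayed at 0 in every alternative run. Over all periods it was 0, 1 without a filter and 0 to 6 with each library left out, and for the difference between periods 0, 9 and 0 to 6. The age interaction gave 16 calls, 20 without a filter and 13 to 19 with each library left out. Over the excitatory clusters, age and cocaine comparisons together, 229 calls became 548 without the fold limit and 144 with at least 30 cells. The cause of these shifts was not tested. The mitochondrial level of excitatory neurons was 28441 CPM, 31438 as a mean over cells and 26019 over all UMIs, and over all UMIs the level was 50270 in place of 56142 CPM in mature oligodendrocytes, and for the nuclear subunit genes 55261 in place of 60396 CPM in excitatory neurons and 21309 in place of 27230.5 CPM in microglia. Of 1449 values of 85 single results under an alternative, 1195 kept their direction and side of the threshold, 251 kept the direction without a call, 3 gained a call and 0 changed direction. Depth limits the smaller classes: library 3 held 8 astrocytes and 3 precursors, and the smallest P21 library of microglia held 12 cells.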
